A study of Mus musculus with 20 samples.

Results

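Plasma cell genes other than the immunoglobulins were followed in the distal colon (DC) of mice given resistant potato starch (RPS). The group held 9 genes, Tnfrsf17, Tnfrsf13b, Mzb1, Derl3, Fkbp11, Pou2af1, Prdm1, Xbp1 and Sdc1, chosen by their symbols out of 26619 gene identifiers in the count table. All 9 were found and all 9 passed the filter on low counts. The samples were DC pieces, taken near the anal end, from 20 C57BL/6 mice. All mice were weaned at 3 to 4 weeks, then started on the Total Western Diet (TWD, a diet modelled on Western human intake) and received it without RPS for 6 weeks. In the 3 weeks that came after, 5 mice stayed on the TWD without RPS (0% RPS), and 5 mice each received TWD with 2, 5 or 10% RPS, a poorly digested starch that the labels call raw potato starch. Each library came from one mouse.

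Plasma cells are the antibody-secreting end stage of the B cell lineage, and the gut wall holds many of them, most making immunoglobulin A. Their differentiation is driven by transcriptional regulators such as Prdm1 (Blimp-1), Xbp1 and the coactivator Pou2af1, and their survival by the ligands APRIL and BAFF, which are read through the receptors BCMA (Tnfrsf17) and TACI (Tnfrsf13b). Because they secrete so much protein, they carry an enlarged endoplasmic reticulum (ER), in which Mzb1, Derl3 and Fkbp11 work. Xbp1, Prdm1, Sdc1 and Fkbp11 are also made by other cells, Xbp1 and Sdc1 by intestinal epithelium among them, and these 4 are called the broad members here. The other 5 are called the restricted members, a label that only sets them apart from these 4. It does not mean that plasma cells alone make them, and a share from B cells was not tested.

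Start-site windows from RefSeq, 250 bases before to 50 bases after the first base of the gene, were given for 8 of the 9 genes in build GRCm38.p6, with 9 windows because Fkbp11 had 2. They are shown for the 3 genes in which a searched motif was found, since these motifs belong to the regulators in the group and to the ER stress response. Capitals mark the motif. The first window holds the ER stress element, which is CCAAT followed 9 bases later by CCACG and is read here on the opposite strand. The second holds TGACGTGG, a sequence bound by Xbp1 and Atf6, and the third holds GAAAGTG, a core of the Prdm1 site, on the opposite strand.
Derl3: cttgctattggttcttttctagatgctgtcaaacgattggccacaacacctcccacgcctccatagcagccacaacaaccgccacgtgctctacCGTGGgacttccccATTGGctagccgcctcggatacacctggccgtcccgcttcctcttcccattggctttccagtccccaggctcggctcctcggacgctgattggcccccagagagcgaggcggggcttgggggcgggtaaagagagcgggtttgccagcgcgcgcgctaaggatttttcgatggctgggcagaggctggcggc
Pou2af1: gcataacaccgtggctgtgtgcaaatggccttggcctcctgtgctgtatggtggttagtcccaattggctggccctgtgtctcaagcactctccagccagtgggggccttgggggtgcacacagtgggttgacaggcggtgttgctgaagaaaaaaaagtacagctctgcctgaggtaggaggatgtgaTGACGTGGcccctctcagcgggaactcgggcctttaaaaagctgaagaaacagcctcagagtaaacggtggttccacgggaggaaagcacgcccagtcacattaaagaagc
Tnfrsf17: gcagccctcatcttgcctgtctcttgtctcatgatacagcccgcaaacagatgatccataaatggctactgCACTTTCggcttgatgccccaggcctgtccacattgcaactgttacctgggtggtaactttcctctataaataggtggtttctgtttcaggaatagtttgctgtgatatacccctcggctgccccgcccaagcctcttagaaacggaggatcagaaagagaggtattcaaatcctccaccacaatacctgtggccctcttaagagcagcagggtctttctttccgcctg
The Derl3 window is chr10:75893148-75893447, the Pou2af1 window chr9:51213440-51213739 and the Tnfrsf17 window chr16:11313559-11313858, all on the plus strand.

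The ER stress element of Derl3 began 156 bases before the start, the TGACGTGG of Pou2af1 61 bases before it and the GAAAGTG match of Tnfrsf17 179 bases before it. Searched on both strands, the ER stress element was present in 39 (0.119%) of the 32851 windows of the whole table, TGACGTGG in 222 (0.676%) and GAAAGTG in 1579 (4.81%). The octamer ATGCAAAT, read by POU factors together with Pou2af1, was in 570 windows (1.74%) and in none of the 9 windows of these genes. The matches describe letters in these windows, and binding was not measured.

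Libraries held 18.4 to 34.97 M counts (M, megacounts), and each RPS diet was less deeply sequenced than 0% RPS, with 31.3 to 34.97 M at 0% RPS against 18.4 to 26.6 M at 10% RPS. Colon epithelium markers were high, with a sum of 17161 to 24794 CPM (counts per megacount of the scaled library) over 12 genes. The 11 squamous markers summed to 9.22 to 24.7 CPM, with Sprr1a, Krt10, Krt14 and Dsg3 highest at means of 5.53, 4.16, 2.495 and 1.43 CPM. Mouse RS10_703 of the 0% RPS diet stood apart, with 0.695% of its counts in immunoglobulin genes against 0.0721 to 0.147% in the other 4 mice of that diet and 0.286 to 0.642% at 10% RPS. Mouse RS10_721 of the 5% RPS diet held pancreas transcripts, with a sum of 7745 CPM over 16 pancreas markers. Mouse RS10_784 of the 10% RPS diet was next at 1025 CPM, and in the remaining mice the sum was 381 to 637 CPM. At 0% RPS, Cela1 alone averaged 520 CPM of a mean sum of 533 CPM, so that this sum does not show pancreas tissue in those mice. Pnlip and Ctrb1 had 0 counts in 6 and 7 of the 20 mice. Diet groups follow the description label, and for the mice RS10_717, RS10_725 and RS10_748 the treatment label gives another diet, namely 2, 5 and 10% RPS in place of 5, 10 and 2%. In bulk tissue, fewer cells of a type and less RNA per cell cannot be told apart.

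Compared per length, as CPM per kb of exon over all 20 mice, the levels of the 9 genes fell into a high pair and a low group. Sdc1, a cell surface proteoglycan also known as CD138, averaged 48.0 ± 9.67 (SD, n = 20) and Xbp1 31.9 ± 5.50 CPM per kb, and Sdc1 was above Xbp1 in 19 of 20 mice. Pou2af1 followed at 4.83 ± 1.66 CPM per kb and was below Xbp1 in 20 of 20 mice. Derl3 averaged 2.25 ± 1.07, Fkbp11 1.59 ± 0.577, Tnfrsf13b 1.46 ± 0.458 and Tnfrsf17 1.45 ± 0.745 CPM per kb. Derl3 was above Fkbp11 in 15 of 20 mice, while Fkbp11, Tnfrsf13b and Tnfrsf17 did not differ beyond their spread, with Fkbp11 above Tnfrsf13b in 11 of 20 mice and Tnfrsf13b above Tnfrsf17 in 12 of 20. Prdm1 averaged 0.757 ± 0.220 and Mzb1 0.305 ± 0.195 CPM per kb, with Prdm1 above Mzb1 in 19 of 20 mice.

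**Figure D1:**
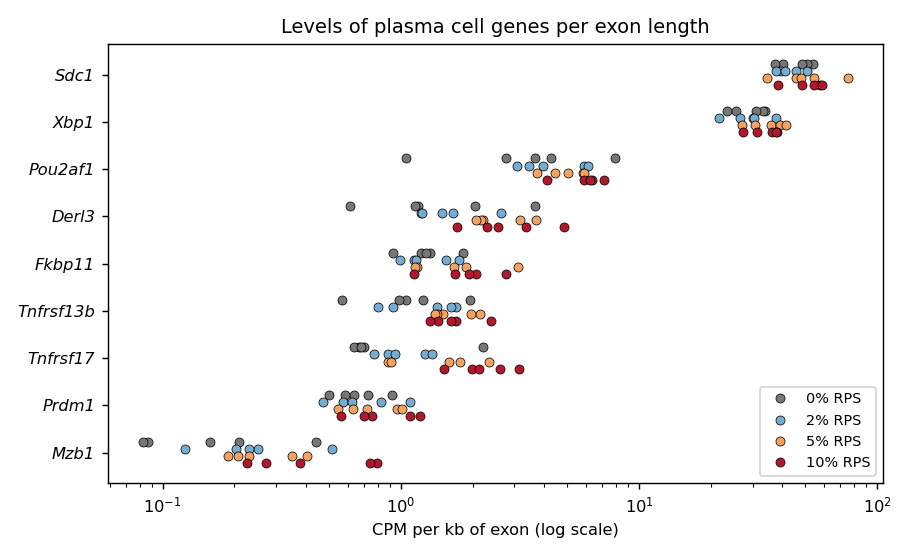
Levels of the 9 plasma cell genes in each of 20 mice, as CPM per kb of exon on a log axis, with one row per gene, one point per mouse and colours for the 4 diets. Sdc1 and Xbp1, at means of 48.0 and 31.9 CPM per kb, lie far to the right of the other 7 genes, and Mzb1 is lowest at 0.305 CPM per kb.

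Values per mouse are given below in CPM after scaling of library sizes, in the order of the mouse codes, which are RS10_701, RS10_703, RS10_704, RS10_707 and RS10_708 at 0% RPS, RS10_709, RS10_712, RS10_715, RS10_716 and RS10_748 at 2%, RS10_717, RS10_718, RS10_719, RS10_721 and RS10_724 at 5%, and RS10_725, RS10_727, RS10_729, RS10_731 and RS10_784 at 10%. Contrasts are log2 fold changes with their standard error (SE) from the quasi-likelihood test of edgeR, adjusted over 17893 tested genes. A gene was called in a contrast at an adjusted p of at most 0.05 with a 1.5-fold change, and in the linear trend over RPS percent at an adjusted p of at most 0.05.

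Among the receptors, Tnfrsf17 rose with the RPS percent and was the 1 gene of the 9 with a called trend. Tnfrsf17 (ENSMUSG00000022496, GRCm39 chr16:11118528-11137938), the receptor BCMA that carries the APRIL survival signal, measured 0.652, 2.06, 0.621, 0.595 and 0.633 CPM in the mice on 0% RPS. It measured 0.724, 0.828, 0.885, 1.18 and 1.26 CPM at 2% RPS and 1.49, 1.66, 2.20, 0.827 and 0.848 CPM at 5% RPS. At 10% RPS the values were 2.93, 1.85, 2.43, 1.98 and 1.41 CPM. All 15 mice given RPS lay above the other 4 mice on 0% RPS, and mouse RS10_703 lay among the 10% RPS mice, so that the groups overlapped. Setting RS10_703 aside, here and for the genes and sums below, was chosen after seeing the data. The share of all tested genes that separate in this way was not counted. Diet means were 0.912 ± 0.641, 0.976 ± 0.234, 1.40 ± 0.580 and 2.12 ± 0.580 CPM (SD, n = 5) at 0, 2, 5 and 10% RPS. The trend was a log2 change of 0.13 ± 0.03 (SE) per percent of RPS, or 2.42-fold over the range of 10 percent, with an edgeR adjusted p of 0.0279. The contrast of 10% against 0% RPS was not called, at 1.22 ± 0.34 (SE) on the log2 scale and an edgeR adjusted p of 0.103.

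The Tnfrsf17 trend depended on single mice and on the sample labels. With each of the 20 mice left out in turn, the trend was called in 13 fits and not in the 7 that left out RS10_701, RS10_707, RS10_708, RS10_725, RS10_729, RS10_731 or RS10_784, where edgeR adjusted p-values were 0.0509 to 0.0738. With groups from the treatment label the edgeR adjusted p was 0.249 with a log2 change of 0.10 per percent, and without the 3 mice with disagreeing labels it was 0.102 with a change of 0.12. In the opposite direction, Tnfrsf17 was called by DESeq2 in the trend (adjusted p of 0.00300), in the contrast of 10% against 0% RPS (0.0273) and in the test of any diet difference (0.0478), tests in which DESeq2 called 3.76, 0.811 and 1.35% of its genes. Counts of this gene ranged from 18 to 77 per library.

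Tnfrsf13b (ENSMUSG00000010142, GRCm39 chr11:61017574-61040434) encodes TACI, which binds both BAFF and APRIL. It measured 3.23, 6.01, 3.01, 3.81 and 1.75 CPM at 0% RPS, and 2.85, 5.23, 5.02, 4.36 and 2.46 CPM at 2% RPS. Values were 6.61, 4.64, 6.05, 4.35 and 4.29 CPM at 5% RPS and 4.41, 4.08, 5.25, 7.34 and 4.98 CPM at 10% RPS. All 10 mice on 5 and 10% RPS lay above the 0% RPS mice other than RS10_703, and the groups overlapped through that mouse. The log2 fold changes were 0.54 ± 0.26 (SE) at 5% and 0.55 ± 0.26 at 10% RPS, with edgeR adjusted p-values of 0.542 and 0.324.

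Among the ER proteins, Mzb1 had the largest log2 fold change of the 9 genes at 10% RPS, and neither it nor Derl3 nor Fkbp11 was called. Mzb1 (ENSMUSG00000024353), an ER chaperone of antibody assembly, was the scarcest, with 4 to 30 counts per library. It measured 0.227, 0.633, 0.124, 0.119 and 0.301 CPM at 0% RPS, and 0.362, 0.331, 0.738, 0.179 and 0.292 CPM at 2% RPS. It measured 0.330, 0.298, 0.271, 0.503 and 0.580 CPM at 5% RPS, and 1.14, 0.326, 1.07, 0.543 and 0.392 CPM at 10% RPS. All 5 mice on 10% RPS lay above the 4 mice on 0% RPS other than RS10_703, and 2 of the 5 above that mouse too. The log2 fold change at 10% RPS was 1.32 ± 0.45 (SE), with a 95% confidence interval (CI) of 0.38 to 2.25 and an edgeR adjusted p of 0.172. The gene overlaps Gm50318 on the same strand, which measured 0.161 to 0.971 CPM, so that reads of either could have been counted for the other. Gm50318 was also higher at 10% RPS, with means of 0.284 ± 0.0639 CPM at 0% and 0.584 ± 0.241 CPM at 10% RPS (SD). The means of Mzb1 were 0.281 ± 0.211 and 0.694 ± 0.383 CPM. What either gene owed to reads of the other was not tested. A count of 0 would have allowed up to 0.0850 to 0.163 CPM (3 counts per library, counting error only), close to the lowest Mzb1 values.

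Derl3 (ENSMUSG00000009092, GRCm39 chr10:75729215-75731775) takes part in the removal of misfolded proteins from the ER and carries the ER stress element printed above. It measured 2.38, 7.41, 2.33, 4.14 and 1.24 CPM at 0% RPS, and 3.02, 2.45, 5.35, 3.36 and 2.50 CPM at 2% RPS. At 5% RPS it measured 4.49, 4.41, 7.48, 6.40 and 4.20 CPM, and at 10% RPS 9.85, 3.48, 6.78, 4.66 and 5.18 CPM. The 5% RPS mice lay above the 4 mice on 0% RPS other than RS10_703, and so did 4 of the 5 mice on 10% RPS. The log2 fold change at 10% RPS was 0.78 ± 0.38 (SE) with an edgeR adjusted p of 0.330, and the trend had an adjusted p of 0.158.

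Fkbp11 (ENSMUSG00000003355, GRCm39 chr15:98622244-98626091) is a peptidyl-prolyl isomerase of the secretory pathway. At 0 and 5% RPS its highest mouse was not the highest for any restricted member. At 2% RPS it was highest in RS10_715, as were Mzb1 and Derl3, and at 10% RPS in RS10_731, as were Tnfrsf13b and Pou2af1. It measured 3.37, 3.67, 5.03, 2.56 and 3.53 CPM at 0% RPS, where RS10_703 was not the highest mouse, and 3.14, 2.75, 4.87, 3.22 and 4.28 CPM at 2% RPS. It measured 5.19, 3.25, 4.63, 8.62 and 3.17 CPM at 5% RPS, with mouse RS10_721 highest, and 4.68, 3.16, 5.72, 7.69 and 5.37 CPM at 10% RPS. All 4 diets overlapped. The log2 fold change at 10% RPS was 0.56 ± 0.26 (SE) with an edgeR adjusted p of 0.320.

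The transcriptional regulators Pou2af1, Prdm1 and Xbp1 were not called in any contrast, trend or test of any diet difference. Pou2af1 (ENSMUSG00000032053, GRCm39 chr9:51124984-51151380), also named OBF-1, measured 9.44, 20.3, 7.11, 11.01 and 2.71 CPM at 0% RPS, and 8.85, 10.1, 15.05, 15.7 and 7.94 CPM at 2% RPS. It measured 14.9, 12.9, 15.1, 11.4 and 9.60 CPM at 5% RPS, and 16.4, 10.6, 15.1, 18.3 and 16.0 CPM at 10% RPS. Mouse RS10_703 was the highest of all 20, and RS10_708 of the same diet was the lowest. The SD was 6.51 CPM around a mean of 10.1 at 0% RPS and 2.88 CPM around 15.3 at 10% RPS, and the log2 fold change was 0.60 ± 0.35 (SE) with an edgeR adjusted p of 0.426.

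Prdm1 (ENSMUSG00000038151, GRCm39 chr10:44313171-44404497), the repressor Blimp-1, ranged from 2.80 to 5.16 CPM on 0% RPS with a median of 3.57, and from 2.65 to 6.16 CPM on 2% RPS with a median of 3.501. It ranged from 3.05 to 5.68 CPM (median 4.03) on 5% RPS, then from 3.16 to 6.74 CPM (median 4.26) on 10% RPS. The diets overlapped over most of their ranges, and the log2 fold change at 10% RPS was 0.36 with a 95% CI of -0.14 to 0.87. Xbp1 (ENSMUSG00000020484, GRCm39 chr11:5470606-5483027), the transcription factor that is activated by splicing in the ER stress response, measured 162 to 234 CPM in the control mice (0% RPS) and 151 to 259 CPM in those on 2% RPS. With 5% RPS its range was 188 to 287 CPM, with 10% RPS it was 190 to 262 CPM, and its log2 fold change at 10% RPS was 0.21 with a 95% CI of -0.08 to 0.51. The interval leaves out a change of 1.5-fold in either direction. Counts per gene do not show how much of the Xbp1 transcript was spliced.

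Sdc1 (ENSMUSG00000020592, GRCm39 chr12:8820854-8843725) marks plasma cells in blood and marrow and is also a proteoglycan of epithelial cells. It measured 226, 168, 211, 156 and 202 CPM at 0% RPS, and 164, 157, 191, 171 and 212 CPM at 2% RPS. It measured 226, 191, 144, 315 and 200 CPM at 5% RPS and 201, 241, 226, 160 and 245 CPM at 10% RPS. Mouse RS10_721, which held the most pancreas transcripts, was the highest of all mice for Sdc1. RS10_784, the next in pancreas transcripts, was the second highest, and RS10_703 was the second lowest at 0% RPS. The log2 fold change at 10% RPS was 0.16 with a 95% CI of -0.18 to 0.50 and an edgeR adjusted p of 0.699.

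**Figure D2:**
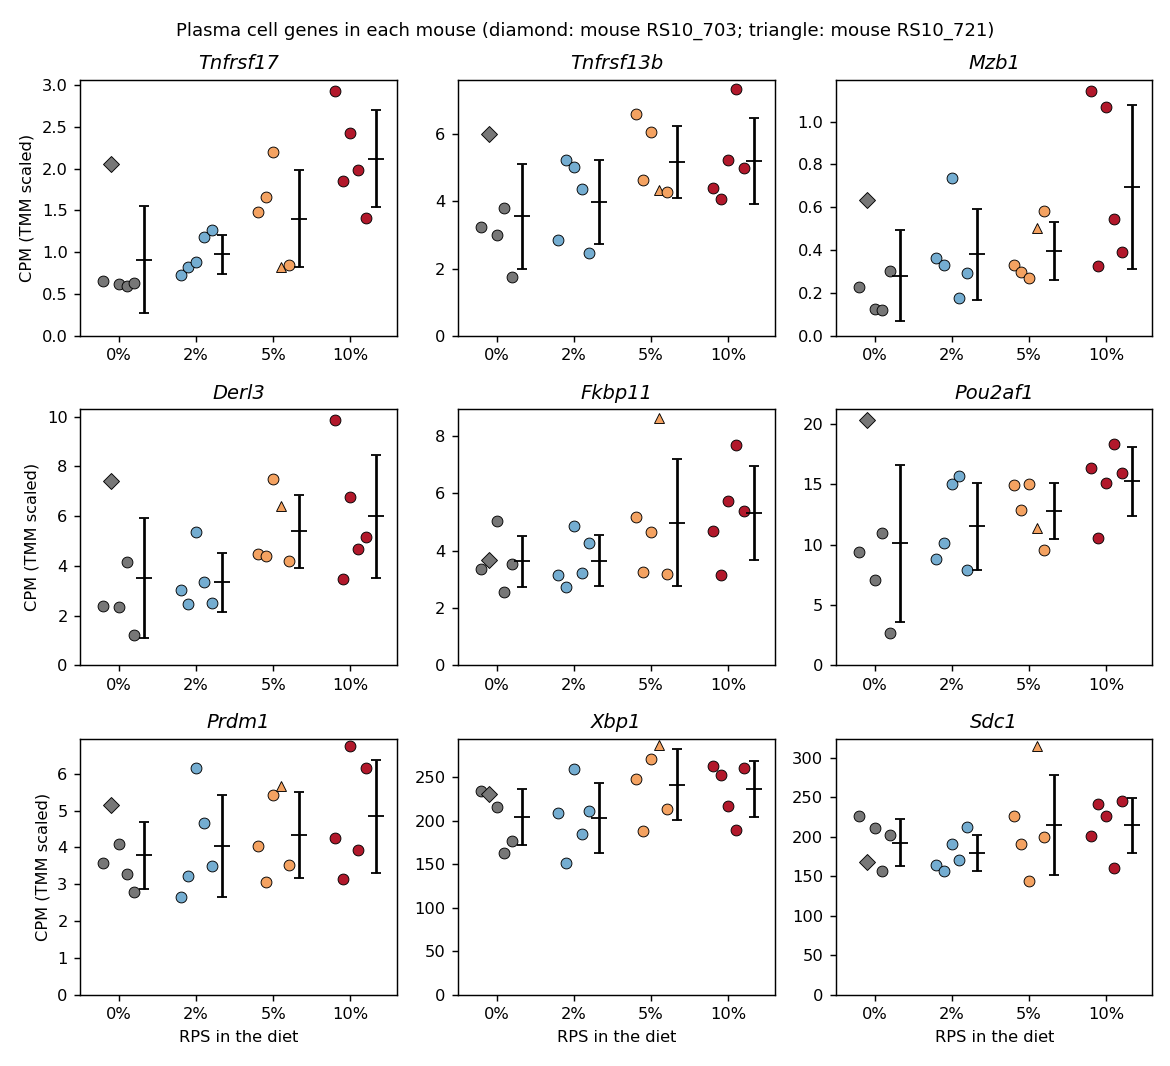
CPM of the 9 plasma cell genes in each mouse by percent of RPS in the diet, with one panel per gene, one point per mouse, and the mean and SD of 5 mice as a bar beside the points. A diamond marks mouse RS10_703 and a triangle mouse RS10_721, and RS10_703 sits above the other 0% RPS mice for Tnfrsf17 (2.06 CPM), Mzb1, Derl3, Pou2af1 and Tnfrsf13b.

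Set side by side, 9 of the 9 genes had a log2 fold change above 0 at 10% RPS, against 46.8% of all tested genes, and the median was 0.56 against -0.01 over all genes. At an unadjusted edgeR p under 0.05 and higher at 10% RPS there were 4 of the 9 (Tnfrsf17, Mzb1, Fkbp11 and Tnfrsf13b), against 7.32% of all tested genes. In the trend, 5 of the 9 passed the unadjusted 0.05 and increased with RPS (these 4 and Derl3), against 9% of all genes. After adjustment, 0 of the 9 were called at 10% RPS, where 0.0391% of all genes were called, and 0 at 5% and 2% RPS, where 0% of all genes were called. The trend was called for 1 of the 9 against 2.1% of all genes, and the test of any diet difference for 0 of the 9 against 0.0727%. None of the 9 had 10% and 0% RPS groups without overlap, a pattern that 2.28% of all tested genes showed. The medians were 0.78 for the 5 restricted members and 0.29 for the 4 broad members at 10% RPS, 0.54 and 0.22 at 5%, and 0.16 and 0.00 at 2%. The 3 contrasts share the 0% RPS mice, so that they are not independent of each other. Nor are the 9 genes, which come from the same mice and in part vary together. The same holds for the counts of genes in the lists below. Members and lists were chosen with earlier results of these data known, so these counts and medians are descriptions and not tests.

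**Figure D3:**
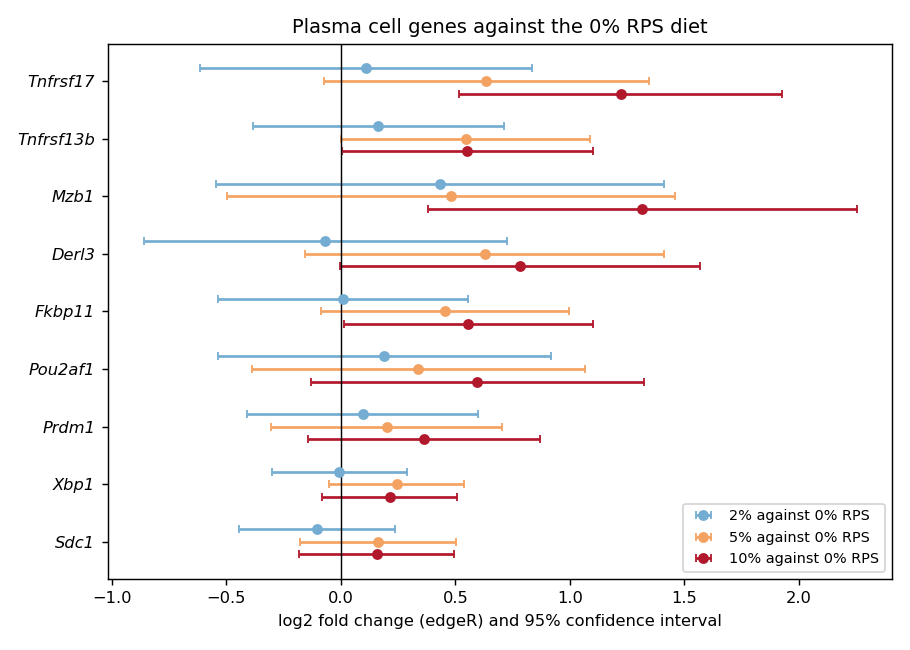
Log2 fold changes of the 9 plasma cell genes at 2, 5 and 10% RPS against 0% RPS from edgeR, with 95% confidence intervals as bars and colours for the 3 contrasts. The intervals at 10% RPS lie above 0 for Tnfrsf17, Tnfrsf13b, Mzb1 and Fkbp11, and no interval at 2% RPS does.

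Without mouse RS10_703 the log2 fold change at 10% RPS was larger for 8 of the 9 genes and smaller for Sdc1, at 0.12 against 0.16. For Fkbp11 it was 0.57 against 0.56. It was 1.77 for Tnfrsf17 (edgeR adjusted p of 0.0130), 1.85 for Mzb1 (0.04996) and 1.26 for Derl3 (0.0623), so that 2 of the 9 were called, against 0.606% of all genes in that fit. The trend was called for Tnfrsf17, Mzb1 and Derl3 (edgeR adjusted p-values of 0.00394, 0.0314 and 0.0319) against 4.21% of all genes, and any diet difference for Tnfrsf17 (0.0394) against 0.0611%. Over the other 4 mice on 0% RPS, Tnfrsf17 averaged 0.625 ± 0.0237 CPM (SD). Mouse RS10_703 was highest of its diet for all 5 restricted members and for Prdm1. Without mouse RS10_727 of the 10% RPS diet, the trend was called for Tnfrsf17 and Mzb1 against 6.34% of all genes. The fits without these mice were 2 of 20 that each left out 1 mouse, and both were picked after seeing the data. For a gene highest in RS10_703 among the 0% RPS mice, leaving out that mouse raises the fold change by construction. The larger changes and the added calls are therefore not a test of the diet.

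Other genes of the plasma cell program were counted from a list of 24, all tested. None was called in a contrast, and the trend was called for 2, both upwards, against 2.1% of all genes, with a median log2 fold change at 10% RPS of 0.36 against -0.01 over all genes. Eaf2, a transcription elongation factor partner, measured 2.89 ± 1.02, 3.14 ± 0.334, 4.03 ± 0.827 and 4.96 ± 1.22 CPM (SD, n = 5) at 0, 2, 5 and 10% RPS, with an edgeR adjusted trend p of 0.0264. Cd38, an ectoenzyme found on plasma cells and many other cells, measured 155 ± 26.6, 187 ± 29.4, 259 ± 89.3 and 285 ± 77.7 CPM, with an adjusted p of 0.0346. Jchain, which joins immunoglobulin A into dimers, was not called, at 211 ± 232 CPM on 0% RPS and 451 ± 168 CPM on 10% RPS (edgeR adjusted p of 0.338). Irf4, a regulator of plasma cell differentiation, measured 4.97 ± 2.87 and 8.66 ± 1.28 CPM (adjusted p of 0.164). Without the highest mouse on 10% RPS, neither trend was called, at edgeR adjusted p-values of 0.0777 for Eaf2 (without RS10_729) and 0.113 for Cd38 (without RS10_784).

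Of 40 genes of the secretory pathway and unfolded protein response, all tested, none was called in a contrast and 2 in the trend, both upwards, against 2.1% of all genes. Ern1, which encodes the sensor IRE1 alpha that splices the Xbp1 transcript, averaged 41.2 ± 5.00 CPM without RPS and 53.4 ± 6.36 CPM on 10% RPS, with an edgeR adjusted trend p of 0.0404. Pdia3, a disulfide isomerase, measured 470 ± 35.3 and 603 ± 87.4 CPM (adjusted p of 0.0425). Neither was called without its highest mouse on 10% RPS, at edgeR adjusted p-values of 0.105 for Ern1 (without RS10_725) and 0.118 for Pdia3 (without RS10_729). At 10% RPS, 36 of the 40 genes had a log2 fold change above 0, against 46.8% of all genes, with a median of 0.19. These genes are used by every secreting cell, goblet cells among them. Their sum was highest in RS10_784 (8550 CPM) and RS10_721 (8402 CPM), the mice with the 2 highest pancreas sums. What pancreas tissue added to these values was not tested.

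The 15 listed ligands and receptors of plasma cell survival and homing included the ligands of the receptors above, and none of the 13 tested was called in any comparison. APRIL (Tnfsf13) had a log2 fold change of 0.00 with a 95% CI of -0.25 to 0.25 at 10% RPS, and BAFF (Tnfsf13b) of 0.04 with a CI of -0.23 to 0.32. The 3 genes with the highest levels were Pigr, the receptor that carries dimeric immunoglobulin A across the epithelium, the chemokine Ccl28 and Il6st, with log2 fold changes of 0.17, 0.31 and 0.04. Of 20 B cell genes, none was called, and 0 passed an unadjusted edgeR p of 0.05 in the contrast of 10% RPS, although 20 of 20 had a log2 fold change above 0 (median 0.47), against 46.8% of all genes. The most abundant, Cd79a, Bcl6 and Spib, had log2 fold changes of 0.21, 0.18 and 0.26. The 20 genes summed to 52.1 CPM in RS10_708, the lowest of all mice for this sum and for Pou2af1. In RS10_703, the highest for Pou2af1, they summed to 232 CPM, below the highest sum of 270 CPM. No B cell measure was among those correlated with the plasma cell genes below.

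Of the 12 immunoglobulin constant region genes, 11 were tested and none was called in a contrast. The trend was called for 1, against 2.1% of all genes, namely Iglc3, a lambda light chain gene, at 6.96 ± 2.85 CPM on 0% RPS and 27.3 ± 30.4 CPM on 10% RPS (edgeR adjusted p of 0.0359). Mouse RS10_725 on 10% RPS held 79.9 CPM of Iglc3, and without it the mean was 14.1 ± 9.03 CPM and the trend was not called (edgeR adjusted p of 0.153). Summed over the 12 genes, the level was 1132, 5742, 1074, 1226 and 617 CPM at 0% RPS and 5827, 2682, 4325, 3675 and 2650 CPM at 10% RPS. All 5 mice on 10% RPS lay above the 4 mice on 0% RPS other than RS10_703, as they did for Tnfrsf17.

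Markers of other cell types moved along with some of these genes. In the trend, 2 of 12 colon epithelium genes were called, both upwards, against 2.1% of all genes. Slc26a3, the chloride and bicarbonate exchanger of surface colonocytes, averaged 1102 ± 157 CPM without RPS and 1633 ± 119 CPM on 10% RPS (edgeR adjusted p of 0.00423), and Krt20 566 ± 226 and 1060 ± 199 CPM (0.0249). The trend of Slc26a3 was called in all 20 fits that left out 1 mouse and that of Krt20 in 18. The 12 genes summed to 17161 to 23341 CPM in the 0% RPS mice, with 20426 to 24583 CPM in the 10% RPS mice. None of 10 goblet cell genes was called (Muc2, Fcgbp and Clca1 were highest, with log2 fold changes at 10% RPS of 0.32, 0.26 and 0.75), and their sum was 8366 to 12773 CPM and 8971 to 17215 CPM in the same diets. None of the 7 tested squamous genes was called, and the most abundant, Sprr1a, Krt10 and Krt14, had log2 fold changes at 10% RPS of 1.08, -0.24 and -0.10. None of 8 smooth muscle genes (Myh11, Acta2 and Des at -0.04, -0.14 and 0.07), 9 T cell genes (Cd4, Lck and Trac at -0.10, 0.02 and 0.15) or 5 tested plasmacytoid dendritic cell genes (Klk1, Tcf4 and Bst2 at 0.28, 0.01 and 0.21) was called. None of 9 tested pancreas genes was called, and of the most abundant, Cela1 was at -0.31 and Pnlip and Ctrb1 had 0 counts in 6 and 7 of the 20 mice. In the macrophage list none was called. There, 8 of 8 genes had a log2 fold change below 0 at 10% RPS, where 46.8% of all genes were above 0. The median was -0.38, with Csf1r, C1qa and C1qb at -0.31, -0.35 and -0.25. At an unadjusted edgeR p under 0.05, 5 of the 8 were lower at 10% RPS and 7 at 5% RPS. Of all 17893 tested genes, 2718 and 1644 passed in either direction. The macrophage sum was highest in RS10_708 of the 0% RPS diet, at 318 CPM. Of 7 posterior Hox genes, 1 was called in the trend, against 2.1% of all genes: Hoxb13 fell, from 520 ± 54.7 to 414 ± 25.2 CPM (edgeR adjusted p of 0.0425), with the call kept in 7 of the 20 fits that left out 1 mouse. The part of these cell types and of position in the values of the 9 genes was not tested beyond the correlations given next.

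Over the 20 mice, the restricted members followed the immunoglobulin level. Each of the 9 genes was correlated, as log2 CPM, with 4 measures: the log2 of the summed immunoglobulin constant region CPM, and the mean log2 CPM of the colon epithelium, goblet cell and squamous epithelium genes. That made 36 relations, with p-values from 100000 permutations and adjusted over the 36. Derl3 had a Pearson r of 0.89 with the immunoglobulin level (Spearman rho of 0.90), Pou2af1 of 0.85 (0.85), Tnfrsf17 of 0.84 (0.86), Tnfrsf13b of 0.73 (0.69) and Mzb1 of 0.68 (0.68). Permutation p-values were 1e-05 for Derl3 and Pou2af1 by r, the smallest that the permutations can give, and adjusted values of these 5 were 0.00018 to 0.00519 for r and 0.00018 to 0.00669 for rho. Without the 2 mice farthest from the median immunoglobulin level, r was 0.83, 0.85, 0.80, 0.69 and 0.68 in the same order. With each value centred on its diet mean, r was 0.89, 0.81, 0.75, 0.66 and 0.52, with permutation adjusted p-values of 0.00036, 0.00045, 0.00158, 0.0109 and 0.0623, so that Mzb1 no longer passed. Centred values were permuted over all 20 mice and not within diets. The p-values within diets, here and below, may therefore be too small.

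The 4 broad members had r of -0.01 to 0.65 with the immunoglobulin level. Sdc1 had an r of -0.01 with the immunoglobulin level (rho of 0.03, permutation adjusted p of 0.968 and 0.911) and of 0.62 with the colon epithelium score (rho of 0.63, permutation adjusted p of 0.0139 and 0.0173). Fkbp11 had an r of 0.45 with the immunoglobulin level (rho of 0.47, permutation adjusted p of 0.119 and 0.0872), of 0.83 with the colon epithelium score (rho of 0.78, 0.00018 and 0.000864) and of 0.80 with the goblet cell score (rho of 0.80, 0.00036 and 0.00072). Both epithelial relations of Fkbp11 held within diets at r of 0.79, and at 0.74 and 0.73 without the 2 farthest mice. For Sdc1, r with the colon epithelium score was 0.61 within diets and 0.41 without the 2 farthest mice (permutation adjusted p of 0.195), so that it rested on those mice. Prdm1 had an r of 0.65 with the immunoglobulin level (rho of 0.60, permutation adjusted p of 0.0110 and 0.0256) and of 0.57 with the goblet cell score (rho of 0.60, 0.0274 and 0.0224). Within diets these were 0.60 and 0.53 (permutation adjusted p of 0.0167 and 0.0629), and without the 2 farthest mice 0.64 and 0.68. Xbp1 had an r of 0.55 with the immunoglobulin level (rho of 0.57, permutation adjusted p of 0.0401 and 0.0307) and of 0.56 with the colon epithelium score (rho of 0.54, 0.0371 and 0.0429). Within diets these were 0.46 and 0.39 (0.123 and 0.251), and without the 2 farthest mice these were 0.44 and 0.33 and no longer passed. Mouse RS10_721 had the highest colon epithelium score and was highest of its diet for all 4 broad members. Without it, r with that score was 0.47 for Xbp1 and 0.495 for Sdc1, and neither passed (permutation adjusted p of 0.109 and 0.0841). Fkbp11 kept 0.78 with the colon epithelium score and 0.83 with the goblet cell score (0.000864 and 0.00018). Among the restricted members, Pou2af1, Tnfrsf13b and Derl3 passed with the goblet cell score by rho (0.52, 0.52 and 0.52, each with a permutation adjusted p of 0.0479) but not by r. No gene passed with the squamous score. Only 7 of its 11 markers passed the filter on low counts, and Krt6a had 0 counts in 15 of 20 mice. A score so near the floor cannot show whether the genes vary with squamous tissue. The difference between any 2 of these correlations was not tested, and all genes share the libraries and their scaling.

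**Figure D4:**
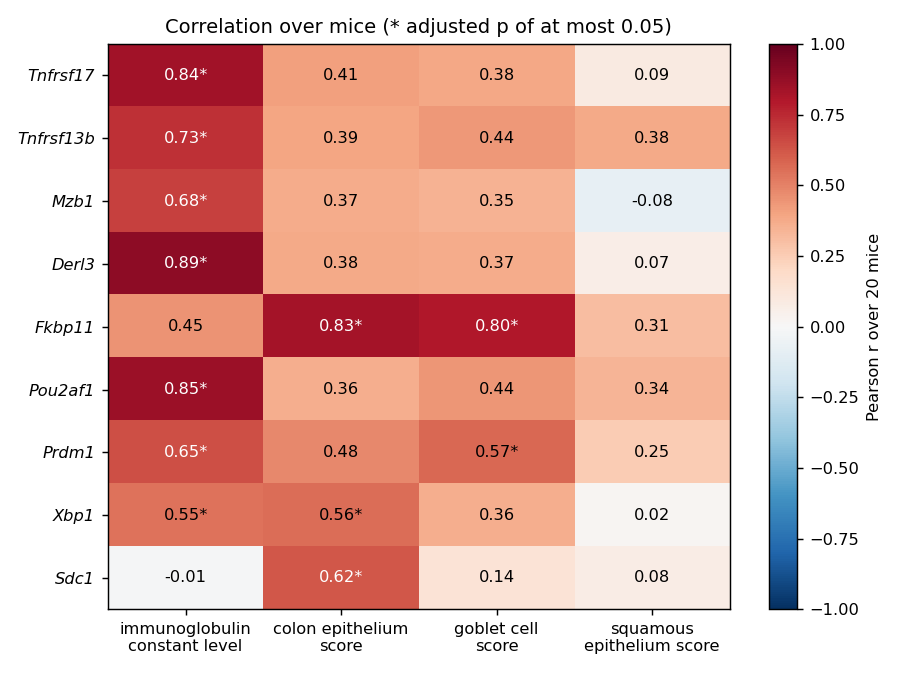
Pearson r over 20 mice between the log2 CPM of each of the 9 plasma cell genes (rows) and 4 measures (columns), coloured from -1 to 1, with a star where the permutation p adjusted over 36 relations was at most 0.05. The first column runs from -0.01 for Sdc1 to 0.89 for Derl3, and Fkbp11 has its 2 highest values, 0.83 and 0.80, in the epithelial columns.

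**Figure D5:**
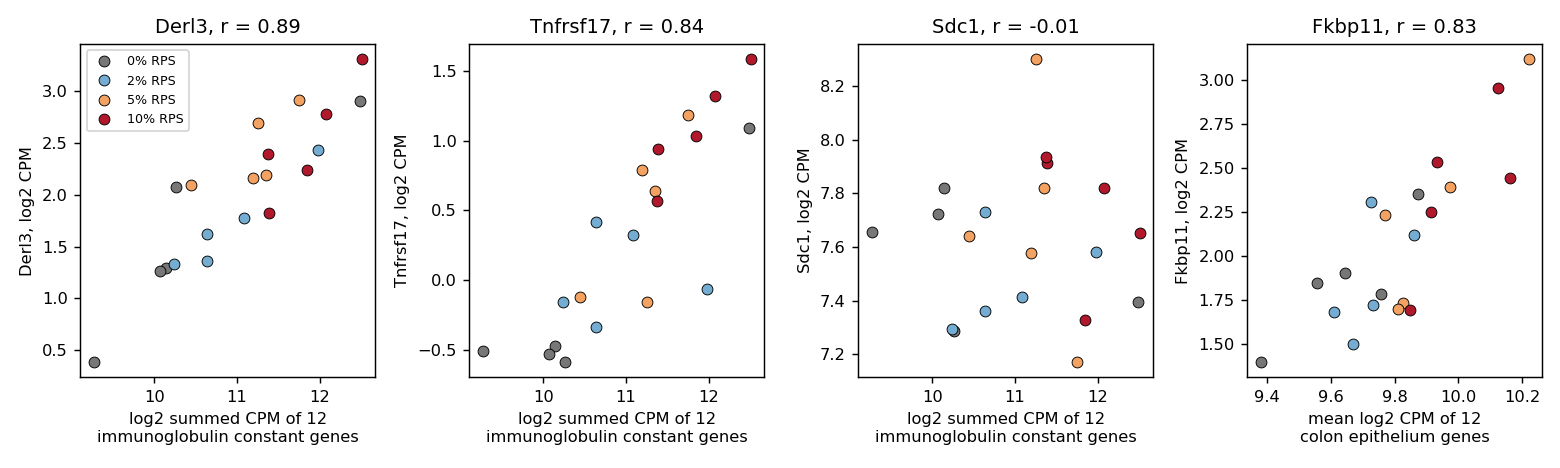
Log2 CPM of Derl3, Tnfrsf17 and Sdc1 against the log2 of the summed CPM of 12 immunoglobulin constant region genes, and of Fkbp11 against the mean log2 CPM of 12 colon epithelium genes, with one point per mouse and colours for the 4 diets. Points rise together for Derl3 (r of 0.89), Tnfrsf17 (0.84) and Fkbp11 (0.83), and show no slope for Sdc1 (-0.01).

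Among themselves, the 10 pairs of restricted members had Pearson r of 0.37 to 0.88 over the 20 mice (median 0.63), with Tnfrsf13b and Pou2af1 highest. The 6 pairs of broad members had r of 0.26 to 0.63 (median 0.55), and the 20 mixed pairs had r of -0.18 to 0.67 (median 0.36). The lowest pair was Tnfrsf13b with Sdc1. These values are descriptions, and depth and scaling are shared by all pairs.

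The genes most like the restricted members were those with the highest Pearson r, over 20 mice, with the mean standardised log2 CPM of the 5, among tested genes whose mean reached 1 CPM. Outside the immunoglobulin genes these were Gm30211 (r of 0.95), Jchain (0.95), 2010309G21Rik (0.95), Irf4 (0.94), Slfnlnc (0.92), Farp2 (0.91), Ccr10 (0.91) and St6galnac3 (0.91). Jchain, Irf4 and Ccr10, a homing receptor of plasma cells making immunoglobulin A, stand in the plasma cell list above. Among the 50 genes most like the 5 there were 5 immunoglobulin genes, where 97 of all 15224 genes considered were immunoglobulin genes. Igha (0.95), Igkc (0.94) and Igkv3-2 (0.86) were highest. For Xbp1 the 5 most similar genes were Eif2s1 (r of 0.92), E2f4 (0.92), Itga6 (0.91), Casp8 (0.90) and Mogs (0.90), and 0 of its 50 most similar genes were immunoglobulin genes. With immunoglobulin genes at 97 of 15224, a count of 0 in 50 does not set Xbp1 apart. Mogs encodes the ER glucosidase that starts the trimming of N-linked sugars, Eif2s1 the translation initiation factor eIF2 alpha, and Itga6 an integrin of basal epithelial attachment.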

How the data were processed

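One stranded polyadenylated RNA library per mouse was sequenced, single-end. The authors removed bases of low quality and ambiguous reads, mapped the rest to GRCm39 in CLC Genomics Workbench and deposited raw counts per gene, neither normalised nor pooled. The annotation release, the strand setting and the handling of multiply matching reads are not given in the sources used here, so genes that overlap (Mzb1 and Pou2af1, and on the opposite strand Xbp1, Sdc1 and Tnfrsf13b) are uncertain. The authors tested with DESeq2.

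Symbols and positions came from GENCODE M39 (GRCm39), in which 26338 of 26619 identifiers were found, and a symbol with 2 identifiers (Ddit3) was taken at the higher count. Groups followed the description label. Genes were filtered with filterByExpr (minimum count 10), which kept 17893 of 26004 genes with counts, library sizes were scaled by TMM, with a prior count of 2 for log2 CPM. Diets were compared in one fit by the quasi-likelihood test of edgeR 4.0.16 (R 4.3.3), with Benjamini-Hochberg adjustment. The procedure was tested on simulated data. DESeq2 1.42.0, limma-voom (limma 3.58.1), RLE scaling, scaling without immunoglobulin genes, no filter, the treatment label, omission of mice and no fold threshold were alternatives. Intervals for fold changes are 95% CI. Two-sided permutation tests used scipy 1.17.1 and numpy 2.4.6.

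Named genes were the 9 members, from each list the genes called or otherwise the 3 with the highest mean, and the 8 and 5 genes most like the restricted members and Xbp1. Jchain, Irf4, Tnfsf13, Tnfsf13b and the squamous markers Dsg3 and Krt6a were named in addition after their values were seen. The members and lists were chosen with earlier results of these data known. Each mouse number belongs to 1 animal. Within a diet, pairs of mice differed by a chi-square of 9.74 to 67.9 per degree of freedom, far above sampling noise, and p-values measure the spread between mice.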

Additional observations from a re-analysis of the deposited data

Results flagged for a closer look

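Of 40 groups of 5 mice examined, which are the 9 genes and the summed immunoglobulin constant region level in each of 4 diets, 2 held a mouse whose gap to its nearest neighbour was above 0.71 of the group's whole range. About 1 in 20 groups would do so by chance, which is 2 of 40. Both came from mouse RS10_703 of the 0% RPS diet, with 2.06 CPM of Tnfrsf17 against 0.652 CPM in the next mouse, and 5742 CPM of the immunoglobulin constant region genes against 1226 CPM. These 2 values belong to the same library and follow each other over all mice.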

How the results depend on the processing

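Precision was limited by 5 mice per diet and, for Mzb1 and Tnfrsf17, by at most 30 and 77 counts per library. DESeq2 called 1 of the 9 genes at 10% RPS and 1 for any diet difference, and 210 genes in all at 10% RPS and 973 in the trend. The treatment label left 0 of the 9 and 0 of all genes with a called trend, and 0 genes called at 10% RPS. Without the 3 mice with disagreeing labels these counts were 0, 56 and 0. Over all genes, 13 were called at 10% RPS with RLE scaling, 36 without mouse RS10_721 and 12 with no fold threshold. Leaving out 1 mouse at a time gave 0 to 2 of the 9 called at 10% RPS, 0 to 3 in the trend and 0 to 1 for any diet difference, and 5 to 188 genes in all at 10% RPS and 24 to 1148 in the trend. The largest of these came without mouse RS10_727. The correlation of Sdc1 with the immunoglobulin level changed sign to 0.0271 by rank and to 0.0684 without mouse RS10_703, an omission chosen after seeing the data. Log2 fold changes of the 9 genes at 10% RPS kept their direction in all alternatives, with 249 on the same side of the threshold and 3 newly called. The fit without mouse RS10_721 stands in these counts under 2 settings. Fits that left out 1 mouse share most of their mice, so that the counts are not independent. No paired analysis was possible because mouse numbers are unique to an animal.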
